A study of Homo sapiens with 12 samples.

Results

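The data described here are the gene levels of HCT116 cells that received only the control siRNA. HCT116 is an established human colorectal cancer cell line, grown as a pure culture in McCoy's 5A medium with serum, so the values come from epithelial tumour cells with no stroma. The control siRNA, siLUC, is directed at luciferase, a gene that human cells do not carry. It was delivered by lipid reverse transfection at 5 nM, and total RNA was taken after 24 h. The members were all arrays labelled siLUCIFERASE, which gave 4 of the 12 arrays of the series, called replicates 1 to 4 and described by the submitters as biological replicates. The other 8 arrays carried siRNAs against the nuclear receptor LRH-1 and were not compared here. All 4 arrays share the transfection and the line itself, so the values describe transfected cells of a single line and not untouched cells.

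Biotin-labelled cRNA was hybridised to HumanHT-12 v4 BeadChips, on which each probe is a short oligonucleotide matched to a transcript. The level of a gene is the mean over the 4 arrays of its quantile-normalised log2 intensity, in which a step of 1 stands for a doubling of the signal. Of the 16381 probes in the value table, 9910 carried 1 gene symbol, and the brightest probe of each symbol gave 7452 genes. Naming was uneven over the alphabet. Of the protein-coding genes in the RefSeq table, 56.1% of those with symbols from A to M had a named probe (6104 of 10886), against 8.24% of those from N to Z (756 of 9170). Several gene families with late letters are therefore nearly absent from this account, such as the cytosolic ribosomal proteins (2 of 85 listed genes) and the proteasome subunits (0 of 41), which says nothing about their levels. The authors had also dropped every probe that no sample detected. A listed gene that was not measured here may therefore lack a named probe or have gone undetected, and shares are of measured genes only.

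Genes were placed in 3 bands by rank. The bright band holds the top 10.0% of genes (745 genes, mean log2 of 10.40 or more), the middle band the next 40% (2981 genes, 7.25 or more) and the dim band the lower 50% (3726 genes). Any list of genes should be read against these shares of 10.0%, 40% and 50%. Levels ran from 5.60 to 14.59 with a median of 7.25, and the genes piled up in a narrow peak close to 6, at the floor of the scale. MRPS7, BIRC5 and ADISSP lay just inside the bright band and MPC1, ARHGDIA and DGCR6 just outside it, all within 0.01 of 10.40. MGAT4B, MED9 and BOK lay just inside the middle band and BMP1, LINC01315 and EPHX2 just below it, and genes on the 2 sides of an edge differed by less than the spread between arrays. A value in the floor peak was not told apart from no signal. A probe's brightness depends on its sequence as well as on its target, so the order of genes is an order of probe signals and not of transcript numbers, and no test was made between genes. The 4 arrays were close to each other, with Pearson correlations across all probes of 0.996 to 0.997. By Spearman correlation the pairs with replicate 2 were the closest, at 0.956 to 0.960 against 0.948 to 0.950 for the other pairs. In a small number of genes, however, replicate 2 stood apart. In the bright and middle bands, 24 of 3726 genes on it differed by more than 0.4 from the mean of the other 3 arrays. Replicates 1, 3 and 4 had 0, 2 and 3 such genes. Without replicate 2, 738 of the 745 bright genes stayed in the bright band.

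**Figure D1:**
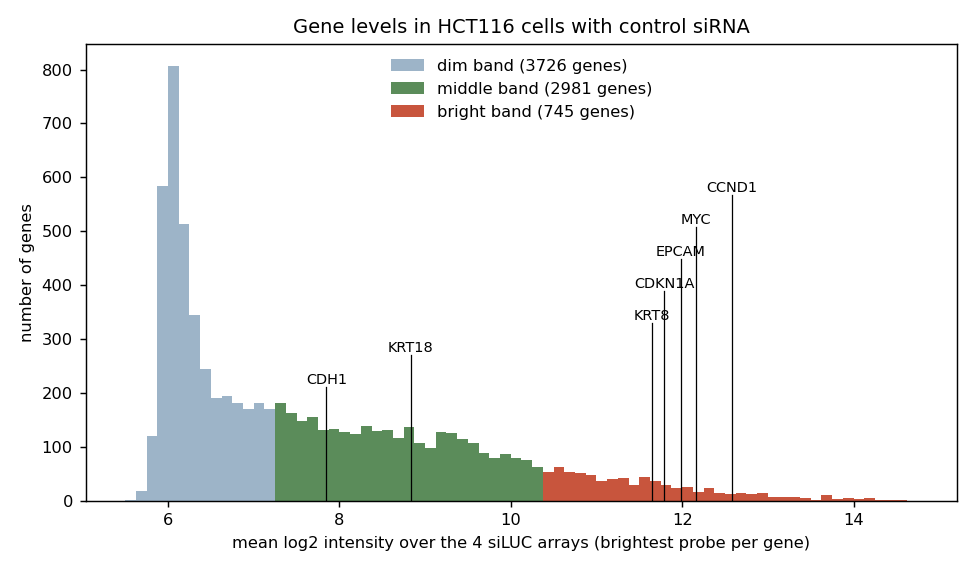
Number of genes (vertical axis) at each mean log2 intensity over the 4 siLUC arrays (horizontal axis), coloured by band, with lines at the levels of the 7 marker genes. The dim genes pile up near 6, CDH1 and KRT18 lie in the middle band at 7.85 and 8.83, and the other 5 markers lie at 11.65 or above.

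Colorectal epithelium is lined by cells held together by cadherin and claudin junctions, and its simple keratins, KRT8, KRT18, KRT19 and KRT20, form the intermediate filaments. Stem cells at the crypt base divide under Wnt signals, and their daughters become absorptive colonocytes or mucus-secreting goblet cells as they climb. In most colorectal tumours the Wnt pathway is active without its ligand, and MYC and CCND1 are well-known targets of it. HCT116 is widely used because it keeps a working p53, whose best-known target is the cell cycle inhibitor CDKN1A.

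The levels of 7 given marker genes were read, and 5 of the 7 lay in the bright band. KRT8, KRT18, EPCAM and CDH1 are markers of epithelium, and of these only EPCAM and KRT8 were bright. MYC, CCND1 and CDKN1A concern growth and p53 and do not mark a tissue. EPCAM, the epithelial adhesion molecule, read 11.996, 11.994, 11.939 and 11.998 on replicates 1 to 4, with a mean of 11.98 ± 0.03 (SD, n = 4). KRT8 read 11.67, 11.55, 11.63 and 11.73, with a mean of 11.65 ± 0.07. The 4 arrays thus lay within 0.18 of each other for KRT8 and within 0.06 for EPCAM. Its filament partner KRT18 was dimmer, at 8.96, 8.77, 8.83 and 8.77, with a mean of 8.83 ± 0.09, and its second probe had a mean of 7.97. CDH1, which encodes E-cadherin, was the dimmest marker at 7.84, 7.82, 7.79 and 7.94, with a mean of 7.85 ± 0.07. Both stayed in the middle band on every array.

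The 3 growth markers were all bright. CCND1, which encodes cyclin D1, read 12.59, 12.60, 12.57 and 12.55, with a mean of 12.58 ± 0.02. MYC, the growth-promoting transcription factor, read 12.21, 12.28, 12.06 and 12.10, with a mean of 12.16 ± 0.10, and its second probe was also bright at 10.56. CDKN1A, which encodes the inhibitor p21, read 11.94, 11.65, 11.77 and 11.82, with a mean of 11.79 ± 0.12, so that an inhibitor of cyclin-dependent kinases and the cyclin that drives them were both among the brightest genes of the same cultures. The second CDKN1A probe, designed to another transcript accession, read only 6.14. With the mean of its probes CDKN1A fell in the middle band at 8.97, and with its dimmest probe in the dim band, which leaves 4 of 7 markers bright in either case.

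**Figure D2:**
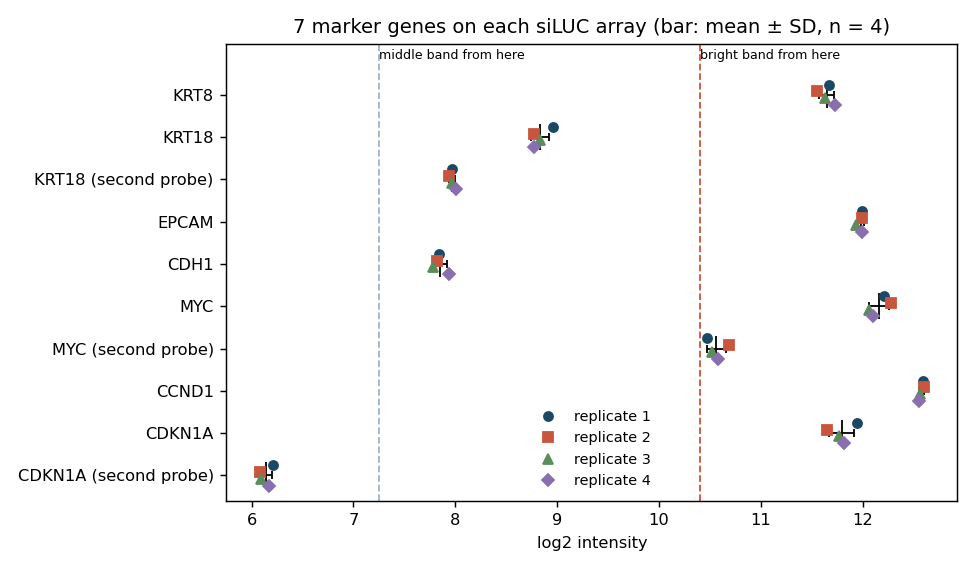
Log2 intensity (horizontal axis) of each probe of the 7 marker genes on each siLUC array, with the mean and SD over 4 arrays and the lower edges of the bright and middle bands as dashed lines. The arrays lie close together for every probe, whereas the probes of CDKN1A lie in different bands, at 11.79 and 6.14.

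Markers of cells that a pure epithelial culture should lack were mostly dim, but few were measured. The dim share was 90.9% for the leukocyte list, against 50% of all genes. It was 75% for the stromal, endothelial and muscle list and 66.7% for the liver, neural and squamous list, which rest on 4 and 6 genes. Of the leukocyte list, 11 of 24 genes were measured, 10 of them dim and none bright. CD14, CD79A, CD74 and MS4A1 lay between 6.02 and 6.14, and only CD68, a lysosomal membrane protein best known from macrophages, reached the middle band at 8.10. HLA-DRA (7.14), CD79B (6.21), CORO1A (6.20), FCGR3A (6.02), LYZ (6.04) and HLA-DRB1 (5.88) were dim. Outside this list, the leukocyte receptor LAIR1 (14.37) and the chemokine receptor CCR6 (12.73, second probe 5.86) were bright, as given below. Of the stromal, endothelial and muscle list, 4 of 21 genes were measured, and no endothelial marker was among them. The collagen chains COL1A1 (6.27) and COL1A2 (6.02) and the matrix protein DCN (6.06) were dim, and ACTA2, smooth muscle actin, was in the middle band at 7.69. Of the liver, neural and squamous list, 6 of 33 genes were measured, with ALB at 6.67, MAP2 of neurons at 6.15, FGA of liver at 6.07 and IVL at 6.001 in the dim band, ENO2 at 8.02, and with KRT10, a keratin of skin, at 10.27 in the middle band. This list had 1 bright member with the mean of probes, the dimmest probe, fixed bands or percentiles among all probes.

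The 25 brightest genes included many that every growing cell uses. EEF1A1, which carries amino-acid-loaded tRNA to the ribosome, was first at 14.64, 14.61, 14.53 and 14.60 (mean 14.59 ± 0.05), and 3 of its 4 probes lay above 14.5. ACTG1, cytoplasmic gamma-actin, came next at 14.71, 14.54, 14.50 and 14.48 (mean 14.56 ± 0.10), with ACTB, beta-actin, at 13.88. The spread between arrays was larger than the gap between EEF1A1 and ACTG1, so their order is not settled. The rest of the 25 brightest genes included FTL, the light chain of the iron store ferritin (14.25), the chaperones HSP90AA1 (14.17) and HSPD1 (13.84), ATP5F1B of the ATP synthase (14.07), the glycolytic enzymes ENO1 (14.05) and GAPDH (13.72), EZR, which ties actin to the membrane of microvilli (13.93), and the membrane-binding annexin ANXA2 (13.89). GAPDH was steady between arrays, at 13.72, 13.73, 13.71 and 13.73. Of genes often used as references, 7 of 18 were measured, and besides ACTB and GAPDH they read 11.97 for B2M, 11.38 for HPRT1, 8.60 for GUSB, 6.98 for ALAS1 and 6.71 for IPO8. These 25 genes carried 9.56% of the summed linear intensity of all 7452 genes, the bright band 62.1% and the whole dim band 6.86%.

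Histone probes H4C3 (14.38) and H2AZ1 (13.90) were also in this group, as were RPS15, a protein of the small ribosomal subunit (14.11), and FAU, another ribosomal protein gene, just below it at 13.66. Several names in this group belong to pseudogenes, namely RPSAP9 (14.37), RPL13AP5 (14.23), RPL13AP20 (14.09) and SLC7A5P2 (13.76). Their sequences are close copies of expressed genes, so a probe's signal cannot be given to the copy or to its parent. By their RefSeq type, 22 of the 745 bright genes were transcribed pseudogenes. They made up 11.9% of the 185 transcribed pseudogenes measured, close to the 10.0% of all genes. Among 9 pseudogenes of ribosomal proteins, 8 were bright and the other, RPL23AP64, lay at 10.40 on the edge.

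A few very bright names are better known from other tissues. They were picked out after their values were seen. LAIR1, an inhibitory receptor of leukocytes, read 14.35, 14.43, 14.37 and 14.31 from its only probe. CLEC2D, a ligand of natural killer cell receptors, read 14.15, with 11.52 from its second probe. CLUAP1, a cilium protein, had 1 probe at 14.15 and 4 others between 6.62 and 8.42. F2R, the thrombin receptor, had probes at 13.75 and 7.17. The levels were steady between arrays, with an SD of 0.05 for LAIR1, CLUAP1 and CLEC2D and of 0.08 for F2R. Whether these probes also bind other transcripts was not tested.

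Probes of the same gene often gave different pictures. Of the 7452 genes, 1902 had 2 or more probes, and the median gap between the brightest and the dimmest was 1.02. For 870 of these genes (45.7%) the probes lay in more than 1 band. Of the 297 bright genes with several probes, 111 (37.4%) also had a dim probe and 69 had all their probes in the bright band. The widest gaps to the second probe in the bright band were those of RPSAP9 (14.37 and 6.22), SLC7A5P2 (13.76 and 5.99), the metallothionein MT1E (13.51 and 6.30), ITIH5 (13.01 and 5.96) and the chemokine receptor CCR6 (12.73 and 5.86). Between probes of the same gene and accession the median gap was 0.95 over 1457 such pairs of gene and accession, an alternative chosen after seeing the data. A dim level in the sections that follow is therefore the level of the probes present, and a bright level rests on the brightest of them. Of the 1902 genes with several probes 297 were bright, against 745 of all 7452 genes. The part of the brightest-probe rule in this was not tested, and list shares were not adjusted for the number of probes.

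**Figure D3:**
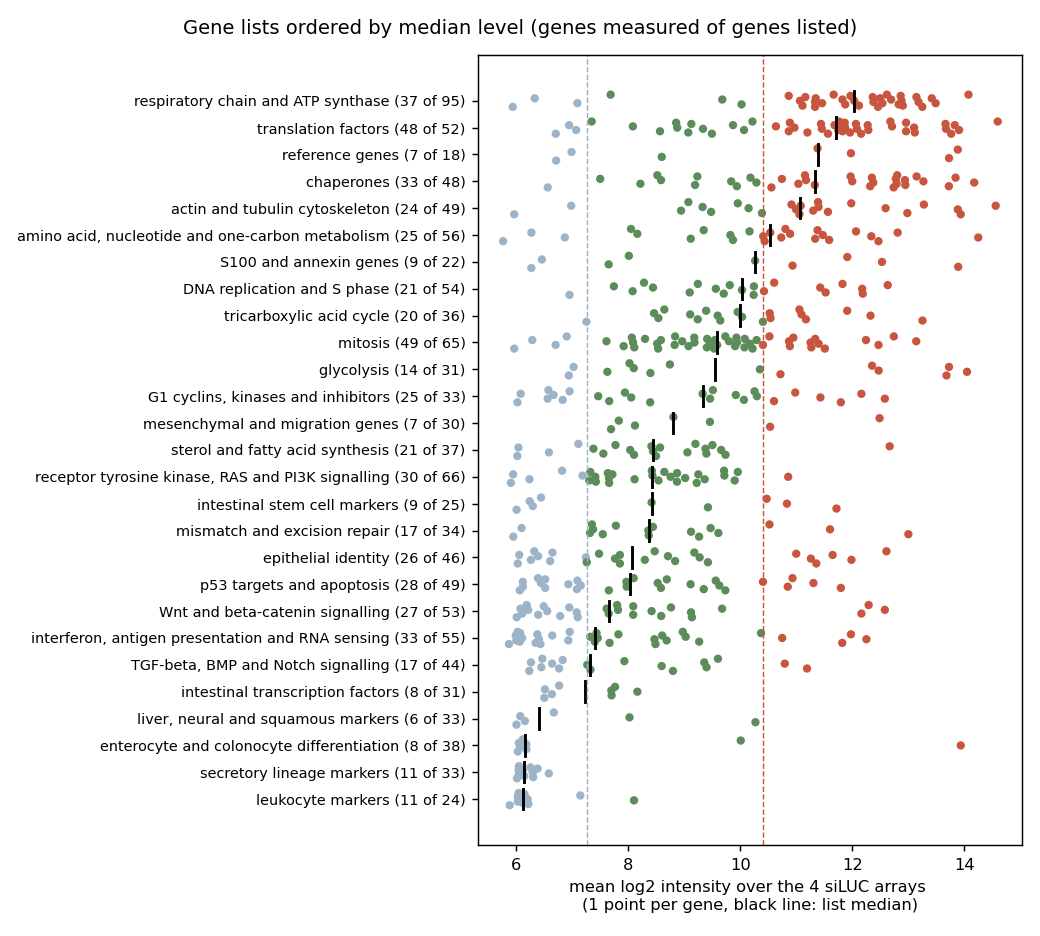
Mean log2 intensity (horizontal axis) of every measured member of each gene list with at least 6 of them, 1 point per gene coloured by band (dashed lines mark the band edges), with the list median as a black line and the numbers of genes measured and listed beside the name. The respiratory chain and translation factors have the highest medians, at 12.03 and 11.71, and the secretory and leukocyte markers the lowest, at 6.14 and 6.11.

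Epithelial identity genes were present at all levels. Of 46 listed genes 26 were measured, with 6 bright (23.1%), 12 middle and 8 dim, and a median of 8.07. KRT19, a simple keratin, was the brightest at 12.65, 12.58, 12.62 and 12.57 (mean 12.61 ± 0.04). It was followed by EPCAM, KRT8 and CTNNA1, the alpha-catenin that links cadherin to actin (11.35), with the desmosomal cadherin DSG2 at 11.26 and the basement membrane anchor LAD1 next. Tight junction genes were lower. CLDN7 read 9.42 and CLDN12 7.47 in the middle band, while CLDN3 (6.60) and CLDN4 (6.39) were dim. Of 14 claudins in all, none was bright, 3 were in the middle band and 11 were dim. The dimmest members were KRT20, the keratin of mature colonocytes (6.02), and GRHL2, a transcription factor of epithelial cells (6.05), and on no array did KRT20 exceed 6.15.

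Of 17 integrin subunits ITGB1, the common beta chain, was the only bright member at 11.54, with ITGAE (10.07), ITGB5 (9.86) and ITGA3 (8.73) in the middle band and 9 subunits dim. Among 7 laminin chains LAMA5 (10.47) was bright and LAMC1 (9.80) was in the middle band. None of 21 collagen chains was bright and 18 were dim, the highest being COL18A1 at 7.76. These families, and the others named here by their symbols, were drawn up after the levels were seen.

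Intestinal transcription factors were measured at modest levels. Of 31 listed genes 8 were measured, 4 in the middle band and 4 dim. CDX2, the homeobox factor that sets intestinal identity, led at 8.17, 8.15, 8.14 and 8.18 (mean 8.16 ± 0.02). The epithelial factor ELF3 (7.76), the forkhead factor FOXA3 (7.70) and KLF4, linked to goblet cell differentiation (7.69), followed. HES1, the Notch target (6.76), FOXA1 (6.63), KLF5 of the proliferating crypt (6.51) and GFI1 of secretory precursors (6.50) were dim.

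Most measured markers of mature intestinal cells were near the floor. All 11 measured of the 33 secretory markers were dim, from 6.01 to 6.58, against 50% of all genes. They included the mucins MUC1 (6.58), MUC4 (6.30), MUC6 (6.14), MUC5B (6.11) and MUC12 (6.05), the goblet cell genes FCGBP (6.25), AGR3 (6.38) and AGR2 (6.01), the endocrine granule protein CHGA (6.04), the antibacterial enzyme LYZ (6.04) and the tuft cell kinase DCLK1 (6.29). Of the colonocyte list 8 of 38 were measured and 6 were dim. The brush border peptidase DPP4 (6.18), the surface antigen GPA33 (6.18), the carbonic anhydrase CA4 (6.12), the hormone GUCA2A (6.06) and the phosphatase ALPI (6.04) all lay in the floor peak. The exceptions were EZR, at 13.96, 13.90, 13.93 and 13.94, which all epithelial cells use, and CA2, a cytosolic carbonic anhydrase, at 10.01, 9.91, 9.96 and 10.14 (mean 10.01 ± 0.10). CA2 stayed below the bright band on every array.

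Of 25 stem cell markers 9 were measured, 3 of them bright. CD44, a hyaluronan receptor, read 11.74, 11.74, 11.58 and 11.80 (mean 11.71 ± 0.09), although its other probes read 8.49 and 6.17. CDCA7, a target of MYC, read 10.83 and BMI1, a Polycomb repressor, 10.47. ALCAM, an adhesion molecule, was in the middle band at 9.42, and so was AXIN2, a feedback inhibitor and target of Wnt, at 8.44, 8.48, 8.38 and 8.35. The RNA-binding protein MSI1 (6.44), DCLK1 (6.29), the growth factor receptor inhibitor LRIG1 (6.24) and ALDH1A1 (6.002) were dim. The mesenchymal and migration list had 7 of 30 members measured and none of them dim. CAV1, which coats caveolae, led at 12.45, 12.51, 12.54 and 12.44 (mean 12.48 ± 0.05), with CAV2 (10.53), the receptor kinase AXL (9.45), and the YAP targets CCN1 (8.80) and CCN2 (8.12), the integrin chain ITGA5 (7.83) and ACTA2 (7.69) behind it. With the mean of their probes in place of the brightest, each of these lists had 1 bright member.

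HOX genes, which record position along the body axis, were mostly dim (13 of 17), and the 3 highest belong to the HOXB cluster. HOXB8 read 10.84, 11.11, 10.90 and 10.86 (mean 10.93 ± 0.12), HOXB7 10.32 and HOXB5 8.73. HOXC6 read 8.71. HOXB13, which is active in the hindmost gut, lay in the floor peak at 5.97.

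Of 49 listed cytoskeletal genes 24 were measured, with 15 bright, 7 middle and 2 dim and a median of 11.06. After the actins and EZR came the myosin light chain MYL6 (13.28). The median lay between the calponins CNN3 (11.08) and CNN2 (11.05), and of the complex ARP2/3, which branches actin filaments, 4 of 7 measured members were bright. STMN1, which takes tubulin apart, was the dimmest at 5.96. Of 9 measured S100 and annexin genes, all of them annexins, 4 were bright. ANXA2 (13.89), ANXA1 (12.53), ANXA5 (11.91) and ANXA3 (10.93) bind membranes when calcium is present, ANXA7 (10.26), ANXA11 (8.01) and ANXA10 (7.65) were in the middle band and ANXA4 (6.27) and ANXA6 (6.45) were dim.

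Dividing cells copy their DNA in S phase, with the MCM helicase opening the strands, and separate it in mitosis, with cyclin B and CDK1 at entry and CDC20 at exit. Replication genes were measured in 21 of 54 cases, with 8 bright (38.1%), 12 middle and 1 dim. MCM7 read 12.58, 12.57, 12.68 and 12.69 (mean 12.63 ± 0.06), and all of MCM2 to MCM7 lay between 9.70 and 12.63. The maintenance methyltransferase DNMT1 (12.18) and the flap nuclease FEN1 (11.82) were bright too. CDC6, a loader of the helicase, was the dim member at 6.95.

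Mitotic genes were measured in 49 of 65 cases, with 14 bright (28.6%), 31 middle (63.3%) and 4 dim, and a median of 9.58. CDC20, which turns on the anaphase-promoting complex, led at 13.12, 13.22, 13.08 and 13.14 (mean 13.14 ± 0.06). BUB3 of the spindle checkpoint (12.74) and the CDK-binding proteins CKS2 (12.47) and CKS1B (12.24) followed. CCNB2 (10.94), AURKA (10.88) and CDK1 (10.52) were bright, and CCNB1 was in the middle band at 9.84, 9.76, 9.70 and 9.89. The list median was that of ANLN, an organiser of the cleavage furrow. BIRC5, or survivin, lay on the edge at 10.47, 10.22, 10.45 and 10.47, a mean of 10.40, and replicate 2 alone was below it. MKI67, the classical marker of proliferation, was dim at 6.82, 6.67, 6.53 and 6.78 from its only probe, and MYBL2 read 6.28. Kinesins, the motors of which many serve the spindle, had 17 of 26 members in the middle band and none in the bright band, from KIF22 (10.17) down to KIF27 (5.89).

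Many genes of late cell cycle are repressed outside it through a promoter element known as CHR, often with CCAAT boxes upstream that bind the factor NF-Y. The RefSeq promoters (GRCh38.p14, 250 bases before to 50 after the first listed start of each gene) of 43 measured mitotic genes were searched for them. A CHR core, TTTGAA or TTCGAA on the gene's strand within 50 bases of the start, was found in 22 of 43 (51.2%, 95% exact binomial interval 35.5 to 66.7), against 2.18% of all 15843 protein-coding promoters. CCAAT on either strand was found in 32 of 43 (74.4%, 58.8 to 86.5), against 36.4%. Mitotic genes with a CHR core had a median level of 9.56 and those without 9.45, and genes with CCAAT had 9.85 against 8.83 for those without. Among the replication genes 0 of 18 had the core, with an upper bound of 18.5% by the exact interval. The CHR search was chosen after the levels were seen. The 4 brightest genes with both motifs within 90 bases before and 10 after the start are shown, with the dim gene MKI67, which holds them too. Capitals mark CCAAT or its reverse complement ATTGG, and the CHR core.
CKS1B (chr1:154974591-154974690, plus strand): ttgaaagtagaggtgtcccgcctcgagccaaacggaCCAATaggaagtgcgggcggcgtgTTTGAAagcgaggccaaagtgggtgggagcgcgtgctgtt
CENPN (chr16:81007124-81007223, plus strand): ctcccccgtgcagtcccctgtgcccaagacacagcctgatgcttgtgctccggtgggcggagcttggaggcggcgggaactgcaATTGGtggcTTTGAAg
CCNB2 (chr15:59105056-59105155, plus strand): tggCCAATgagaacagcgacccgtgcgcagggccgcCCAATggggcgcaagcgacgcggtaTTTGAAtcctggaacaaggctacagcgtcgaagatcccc
DLGAP5 (chr14:55191576-55191675, minus strand): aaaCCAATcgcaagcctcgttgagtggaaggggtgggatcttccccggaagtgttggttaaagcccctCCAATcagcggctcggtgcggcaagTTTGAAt
MKI67 (chr10:128126414-128126513, minus strand): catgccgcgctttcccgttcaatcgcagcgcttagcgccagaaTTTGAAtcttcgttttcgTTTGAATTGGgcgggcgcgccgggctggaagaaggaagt

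In CKS1B and CCNB2 the core began 30 and 29 bases before the start, with a CCAAT box 54 bases before it in both. MKI67 held the core 2 times, the second running into ATTGG. CKS1B read 12.24, CENPN 11.25, CCNB2 10.94, DLGAP5 10.29 and MKI67 6.70, so genes that hold both motifs lay in all 3 bands.

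Of 33 listed genes that govern the step from G1 into S phase 25 were measured, with 6 bright, 12 middle and 7 dim. Besides CCND1, MYC and CDKN1A, the kinases CDK4 (11.43) and CDK2 (10.60) were bright, with CDK6 at 10.25 just under the edge. Of the D-type cyclins CCND1 (12.58) and CCND3 (10.98) were bright, while CCND2 read 6.04, 6.02, 6.15 and 6.10 in the floor peak. CCND3 also had the eighth widest SD of all bright and middle genes (0.26), with 10.60 on replicate 2 against 11.07, 11.05 and 11.20. CCNE1, cyclin E, read 9.46. The activating E2F factors E2F2 (9.51) and E2F3 (9.92) were in the middle band and E2F1 (6.83) was dim. Of the other family members E2F4 (10.06), E2F6 (9.32), E2F7 (8.39) and E2F5 (7.66) were in the middle band and E2F8 (6.66) was dim. Among inhibitors other than CDKN1A, CDKN3 (10.29), CDKN1B (8.05), CDKN2D (7.94) and CDKN2A (7.46) were in the middle band and CDKN2B (6.57) and CDKN1C (6.56) were dim. MAX, the partner of MYC, read 6.95 and MYCL 6.02.

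Translation factors had the second highest median among the lists plotted. Of 52 listed 48 were measured, with 33 bright (68.8%), 12 middle and 3 dim and a median of 11.71. EEF1A1 led, then the helicase EIF4A1 (13.90), NACA, which guards new chains at the ribosome exit (13.83), EIF3E (13.76), BTF3, the partner of NACA (13.67), and EEF1B2 (13.66). Of the 13 measured subunits of the initiation complex eIF3, 11 were bright, the median being EIF3D at 11.82, while EIF3C read 7.07. By contrast the guanine exchange complex eIF2B had 1 of 5 subunits bright. The dimmest members were EIF4E, the cap-binding protein, at 6.46, 6.71, 6.88 and 6.76, and EIF4EBP1, its inhibitor, at 6.94. The list had medians between 11.59 and 11.75 on the single arrays. The ribosomes of the mitochondrion were covered well because their symbols begin with M. Of 78 such genes 43 were bright (55.1%), 33 middle and 2 dim, led by MRPS12 (12.44) and MRPL3 (12.30).

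Messenger RNAs of the translation machinery often begin with a C followed by a run of pyrimidines, called a TOP element, which puts them under the control of mTOR. A C and at least 4 pyrimidines at the first listed start were found in 11 of 39 translation factor promoters (28.2%, 15.0 to 44.9), in 7 of 31 respiratory chain promoters (22.6%, 9.59 to 41.1) and in 4.60% of all protein-coding promoters. All 11 of the translation factors with it were bright, with a median of 11.87, and 15 of the 28 without it were bright, with a median of 10.76. All 7 of the respiratory chain genes with it were bright as well, as were 19 of the 24 without it. The following starts, from 10 bases before to 20 after the first base, belong to the brightest members with a TOP element in these lists and to FAU, with the run in capitals.
EEF1A1 (chr6:73521013-73521042, minus strand): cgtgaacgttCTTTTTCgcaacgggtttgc
NACA (chr12:56725280-56725309, minus strand): ctcgctcggtCTTTCTgccgccatcttggt
BTF3 (chr5:73498432-73498461, plus strand): cttccggcctCCCTTTagctgccatcttgc
FAU (chr11:65122115-65122144, minus strand): tcgcttcttcCTCTTTCTCgactccatctt
COX4I1 (chr16:85799685-85799714, plus strand): cggccttgctCTCTTCCggtcgcgggacac
COX7C (chr5:86617931-86617960, plus strand): tcccatctttCTTTTCagtccttgcgcacc

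The runs were 6 to 9 bases long. All of these genes read above 13.4, with 13.83 for NACA, 13.67 for BTF3, 13.66 for FAU, 13.49 for COX4I1 and 13.42 for COX7C.

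Chaperones fold new and damaged proteins, and 22 of 33 measured members (66.7%; 48 listed) were bright, 10 middle and 1 dim. The cytosolic HSP90AA1 read 14.21, 14.17, 14.04 and 14.27, the mitochondrial HSPD1 13.75, 13.85, 13.78 and 13.99, and HSPA8, the constant member of the HSP70 family, 13.72. The small heat shock protein HSPB1 (13.27) and the stress-induced HSPA1B (13.15) were bright on all arrays. HSPA1B has a nearly identical neighbour gene, so its signal may be shared. Of 7 listed members of the CCT ring, which folds actin and tubulin, 5 were bright, led by CCT7 (12.94), while CCT4 (8.52) and CCT5 of the same ring lay in the middle band. The folding enzymes of the endoplasmic reticulum were split, with HSP90B1 (12.77) and DNAJB11 (11.97) bright and CALR (10.28), HSPA5 (9.19) and CANX (8.58) in the middle band. HSPA13 was the dim member at 6.56.

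Energy metabolism held many bright genes. In glycolysis 14 of 31 genes were measured, 6 of them bright. ENO1 read 14.05, 14.07, 14.04 and 14.02 (mean 14.05 ± 0.02), GAPDH 13.72, LDHA 13.68, LDHB 12.47, ALDOA 12.35 and GPI 10.71. Of the enolases and aldolases measured, the common forms were bright and those of neurons, muscle or brain were not. ENO2 of neurons read 8.02 and ENO3 of muscle 7.02, against 14.05 for ENO1, and ALDOC of brain 8.39 against 12.35 for ALDOA, as levels of different probes. Of the hexokinases, which trap glucose in the cell, HK1 (10.35) and HK2 (8.74) were in the middle band, with ADPGK (8.10) and PDK3 (7.62), and BPGM (6.94) was dim. The enzymes of the tricarboxylic acid cycle had 8 of 20 measured members bright and 11 middle, with 3 bright when only genes with a log2 of at least 7 were ranked. MDH2, the mitochondrial malate dehydrogenase, read 13.31, 13.19, 13.30 and 13.20 (mean 13.25 ± 0.06), its cytosolic form MDH1 12.32 and citrate synthase CS 11.91. IDH2 was the dimmest at 7.25 and IDH1 read 9.24.

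The respiratory chain had the highest median among the lists plotted, 12.03, and 31 of 37 measured members in the bright band (83.8%, 95 listed). ATP5F1B, the catalytic subunit of the ATP synthase, read 14.04, 14.004, 14.15 and 14.10. Of 18 genes named for the ATP synthase, 1 of them a pseudogene, 15 were bright and none was dim. Of 12 subunits of cytochrome c oxidase 11 were bright, with COX4I1 (13.49), COX7C (13.42) and COX7A2 (13.25) first. Of 8 NDUFA subunits of complex I, 5 were bright, 2 middle and 1 dim, the last being NDUFA5 at 5.93. CYCS, cytochrome c itself, read 7.09 and ATP5MC3 7.68, well below CYC1 at 12.46.

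Synthesis of lipids was in the middle range. Of 37 listed genes 21 were measured, with 1 bright, 16 middle (76.2%) and 4 dim. The bright gene was FASN, fatty acid synthase, at 12.76, 12.72, 12.55 and 12.63 (mean 12.66 ± 0.10). The next, ACAT2, read 9.73, followed by EBP (9.66) and the elongase ELOVL6. Of other enzymes on the way to cholesterol, HMGCS1 read 9.38, FDPS, the median gene of the list, 8.44, CYP51A1 7.11 and MVK 6.58. FADS2 (6.02) and ACACB (6.04) were the dimmest.

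Amino acid, nucleotide and one-carbon metabolism had 15 of 25 measured genes bright (56 listed), and 9 when only genes with a log2 of at least 7 were ranked. After FTL came GSTP1, which couples glutathione to toxic compounds (12.81), GPX4, which removes lipid peroxides (12.46), and IMPDH2 of guanine synthesis (12.34). The mitochondrial folate enzyme MTHFD2 (10.73) and asparagine synthetase ASNS (10.43) were bright. GLUL, glutamine synthetase (6.27), and GPX2, a glutathione peroxidase of gut epithelium (5.73, 5.91, 5.84 and 5.57), were the dimmest. Metallothioneins, which bind zinc and copper, included MT1E at 13.37, 13.69, 13.33 and 13.67, MT2A at 12.85, 12.92, 12.95 and 13.05 and MT1X at 11.15, 11.55, 11.07 and 11.22, with MT1F (8.10) and MT1G (7.01) lower. MT1 genes are close copies of each other, and the second probe of MT1E read 6.30.

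In the Wnt list 27 of 53 genes were measured, with 3 bright (11.1%), 12 middle and 12 dim, close to the 10.0% of all genes. The bright ones were CCND1, MYC and DKK1, a secreted Wnt inhibitor, at 12.33, 12.38, 12.21 and 12.24 (mean 12.29 ± 0.08), whose second probe read 6.76. CTNNB1, which encodes beta-catenin, read 9.07, 9.17, 9.27 and 9.02 (mean 9.13 ± 0.11), with GSK3B at 9.12 and AXIN1 at 8.09. Of 10 frizzled receptors 9 were dim and the highest, FZD6, read 7.81. The co-receptor LRP5 (8.08) lay above LRP6 (6.18). LEF1, a partner of beta-catenin on DNA, was in the floor peak from 5.96 to 6.03.

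The receptor tyrosine kinase, RAS and PI3K list was almost wholly in the middle band, with 24 of 30 measured genes there (66 listed), against 40% of all genes. The single bright member was DUSP5, a phosphatase that restrains ERK, at 10.92, 10.66, 10.96 and 10.88 (mean 10.85 ± 0.13). DUSP6, another such phosphatase, read 9.71, ETV5 9.36 and FOSL1 9.01, all 3 known as genes that ERK activity turns on. However, ETV4 was dim at 7.18, and the second probes of DUSP6 and ETV5 read only 6.90 and 6.94. The kinases MAP2K1 (9.95), AKT1 (9.90) and MTOR (9.22) and the GTPase HRAS (9.71) were close together. Of the receptors in this list MET (9.25) was the highest, then DDR1 (8.43), ERBB2 (8.42), FGFR3 (8.11), ERBB3 (7.63) and EGFR (7.32), with MST1R (6.81) and the insulin receptor INSR (5.90) dim. The EGFR ligand EREG read 8.87, while EGF (5.94) and NRG1 (6.23) were dim.

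Of 44 genes for TGF-beta, BMP and Notch signalling, 17 were measured and 2 were bright (11.8%), close to the 10.0% of all genes. HES4, a Notch-related repressor, read 11.30, 11.17, 11.16 and 11.12, and ID1, a target of BMP signals, 10.79, with 6.72 from its second probe. The list had 1 bright member with the mean or the dimmest probe, and 0 when only genes with a log2 of at least 7 were ranked. ID2 (9.60), JAG2 (9.39) and ID3 (9.35) were in the middle band, JAG1 lay on its lower edge at 7.26, and HEY1 (6.26) and INHBB (6.23) were the dimmest. Of 11 Kruppel-like factors KLF2 (11.33) and KLF6 (10.72) were bright, and of 10 histone deacetylases HDAC1 (12.29) and HDAC2 (11.53) were bright, HDAC3 read 9.04 and 7 were dim.

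In the list of p53 targets and apoptosis genes, 28 of 49 were measured, with 5 bright, 12 middle and 11 dim. CDKN1A stood first. BCL2L1, the survival protein BCL-XL, followed at 11.26, 11.28, 11.36 and 11.31, then CASP2 (10.93) and DIABLO (10.84), the latter with an SD of 0.01. Of other targets of p53, GDF15 read 9.73, AEN 9.56, BAX 9.34, GADD45A 9.11, TIGAR 8.58, DDB2 7.15 and BBC3, or PUMA, 6.93, while MDM2, which returns p53 to low levels, was dim at 6.48, 6.26, 6.40 and 6.39. The dimmest were FAS (6.11) and BCL2L11 (6.06), with BCL2 at 6.12. With the mean of all probes or with the dimmest probe, none of these 28 genes was bright, and without replicate 1, 3 or 4 BIRC5 fell below the edge, which left 4 bright.

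Repair genes had 17 of 34 members measured, with 3 bright and 12 middle. HCT116 is known for defective mismatch repair. MSH3 read 12.96, 13.03, 13.03 and 12.97 from its brighter probe and 6.40 from the other, both designed to the same accession. APEX1, the abasic site endonuclease, read 11.60 and MSH6 10.65, 10.35, 10.63 and 10.44 (mean 10.52 ± 0.15). The nuclease EXO1 (9.61), the kinases CHEK1 (9.47) and CHEK2 (8.36), MUTYH (9.12), MGMT (8.44) and BRCA1 (7.78) were in the middle band, as was ATM (7.31), and ATR was at 5.94. The ligase LIG3 read 7.37. Excision repair genes of the ERCC series, with ERCC3 at 8.36, ERCC5 at 7.54 and ERCC2 at 7.35, ran from ERCC1 (9.26) down to ERCC4 (6.09) and ERCC6 (6.01), with none bright.

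Transfected RNA can be sensed by cells as foreign, and interferon genes report such a response. Of 55 listed genes 33 were measured, with 4 bright (12.1%), 14 middle and 15 dim, close to the 10.0% of all genes in the bright band. The bright ones were IFITM2 at 12.33, 12.17, 12.17 and 12.32, B2M, the light chain of HLA class I, at 12.02, 11.97, 12.11 and 11.79, IFITM3 (11.82) and ISG15 (10.74). Of the sensors of foreign RNA, IFIH1 was dim at 6.64 and EIF2AK2, or PKR, was in the middle band at 8.97. The 4 measured IFIT genes, which interferon induces, were dim, whereas the interferon genes ISG15, IFITM2 and IFITM3 were bright. IFIT5 read 6.43, IFIT1 6.34, IFIT3 6.07 and IFIT2 6.05, with IFI44L at 6.37 and CXCL10 at 6.10. HLA-E (9.26), HLA-B (8.68) and HLA-F (8.46) were in the middle band and HLA-C (6.95) was dim, but HLA genes are so alike that their probes may share signal. Of 15 chemokines only CXCL16 (9.37) and CXCL8 (7.40) rose above the dim band, and CXCL2 was the lowest at 5.87. No untransfected culture was measured, so these are levels and not responses.

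Some families had scarcely any signal. All 15 keratin-associated proteins of hair, 79 of 81 miRNA hairpins, 98 of 103 long non-coding RNAs named LINC, 37 of 43 potassium channels and 22 of 26 cytochrome P450 enzymes were dim. The exceptions were few. KCNH6 was the only bright channel at 10.75, 11.10, 10.92 and 11.04 from its only probe, and CYP24A1, which inactivates vitamin D, read 9.13. The MAGE family, in which many genes are normally silent outside the testis, had 12 of 19 members dim and 2 bright (10.5%). MAGEB2 read 11.40, 11.32, 11.45 and 11.38 and MAGED1, which is widely expressed, 10.60. MAGEA6 (8.60) and MAGEA3 (8.23), which are close copies, were in the middle band. Of 42 histone genes 4 were bright (9.52%), 11 middle and 27 dim. The bright shares of the MAGE and histone genes were thus close to the 10.0% of all genes.

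The replicates spread little. The median SD over the 4 arrays was 0.08 for all genes, 0.07 in the bright band, 0.08 in the middle band and 0.09 in the dim band, and 108 of 7452 genes had an SD above 0.2. The 10 widest SDs of the bright and middle bands are plotted array by array. CFDP1, a chromatin factor, was the widest at 9.67, 10.46, 9.62 and 9.58 (SD 0.42), and PROSER1 (SD 0.36) and CPA4, a carboxypeptidase (SD 0.34), were likewise high on replicate 2 alone. FAM3C, a secreted protein, was low on it alone at 10.07 against 10.71, 10.70 and 10.65. Replicate 2 was the highest or the lowest array in 9 of the 10 genes. BLOC1S1 was the exception, with 8.64 and 8.69 on replicates 1 and 2 and 9.02 and 9.26 on replicates 3 and 4. What sets replicate 2 apart in these genes was not tested, and the labels name no batch.

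**Figure D4:**
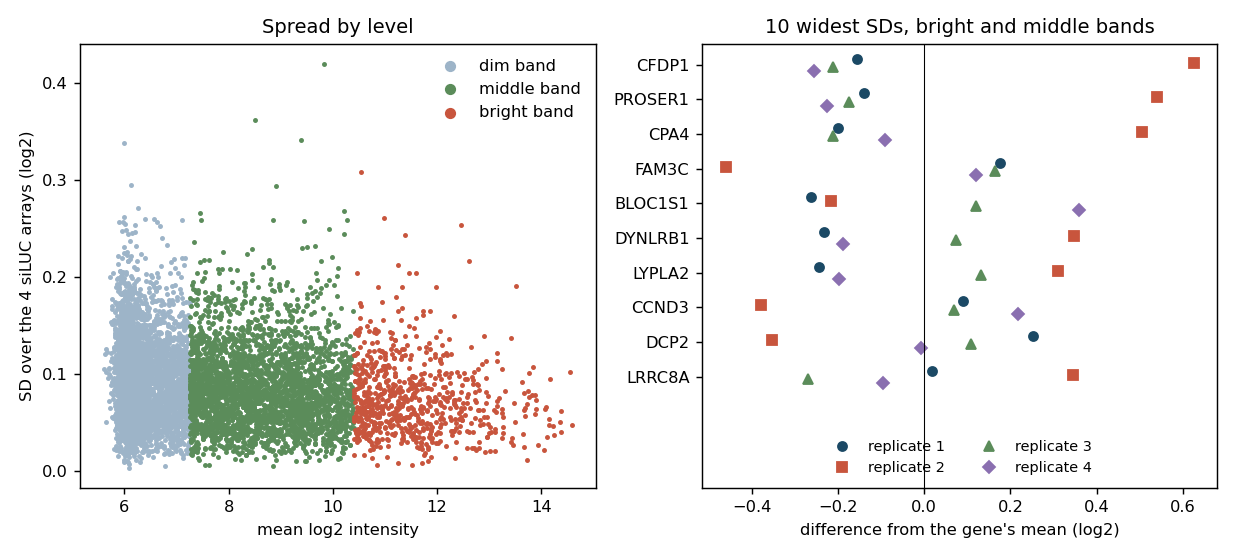
Left, SD over the 4 siLUC arrays (log2, vertical axis) against mean log2 intensity for each gene, coloured by band. Right, difference of each array from the gene's mean (log2) for the 10 widest SDs of the bright and middle bands, where replicate 2 lies at an end for 9 of the 10 genes.

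Promoter letters were set beside level for the 5671 protein-coding genes with a RefSeq promoter, of 6860 measured, each gene taken once by its first listed start. The pyrimidine start described above was found in 10.6% of bright genes (65 of 612, 8.29 to 13.3), 4.94% of middle genes and 3.40% of dim genes (2.73 to 4.17). CCGGAAG, the core bound by ETS factors, was found on either strand in 25.3% of bright genes (21.9 to 29.0), 21.7% of middle and 11.97% of dim genes, against 14.2% of all promoters. It was found in 28 of 68 mitochondrial ribosomal proteins (41.2%, 29.4 to 53.8) and in 5 of 11 cytochrome c oxidase subunits (45.5%, 16.7 to 76.6), and this search too was chosen after the levels were seen. GGGCGG, the GC box on either strand, was found in 73.5% of bright, 73.2% of middle and 60.7% of dim genes, against 58.5% of all promoters. CCAAT hardly varied, with 37.7%, 37.0% and 35.4%. These intervals cover counting error only. Bright and middle promoters alike had a median of 27 CG pairs in the promoter window, against 22 in the dim band and in all promoters. The part of base composition in these shares was not tested.

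TATAAA in the 50 bases before the start was rare, in 2.61% of bright genes (16 of 612), 1.78% of middle genes and 4.02% of dim genes (3.29 to 4.85). Of all protein-coding promoters 3.89% had it. The bright band as a whole was thus not above the share of all promoters. When genes were cut into 10 equal groups by level, 6.12% of the lowest group had it (4.14 to 8.67) and 0.81% of group 8. Of the top 1 percent of genes 10.5% had it, which is 6 of 57 promoters (3.96 to 21.5). This interval is wide, and its lower bound is close to the share of all promoters. The dim keratin-associated proteins had it in 8 of 14 and the histone genes in 24 of 39. It is shown for ANXA2, H2AZ1, HSPA1B and MT2A, which are among those 6 genes, and for MT1X, from 50 bases before to 10 after the start, with the box in capitals.
ANXA2 (chr15:60397977-60398036, minus strand): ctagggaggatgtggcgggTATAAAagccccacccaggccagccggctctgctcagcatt
H2AZ1 (chr4:99950266-99950325, minus strand): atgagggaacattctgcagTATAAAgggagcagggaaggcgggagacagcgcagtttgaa
HSPA1B (chr6:31827688-31827747, plus strand): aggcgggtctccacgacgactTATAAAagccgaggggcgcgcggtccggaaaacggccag
MT2A (chr16:56608534-56608593, plus strand): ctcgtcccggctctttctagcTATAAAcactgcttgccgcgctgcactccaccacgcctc
MT1X (chr16:56682420-56682479, plus strand): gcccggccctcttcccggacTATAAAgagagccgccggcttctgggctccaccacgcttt

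In all 5 the box began 29 to 31 bases before the start. Their levels were 13.89, 13.90, 13.15, 12.94 and 11.25 in the order shown. The SD of MT1X (0.21) was wider than those of the other 4 (0.06 to 0.08).

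**Figure D5:**
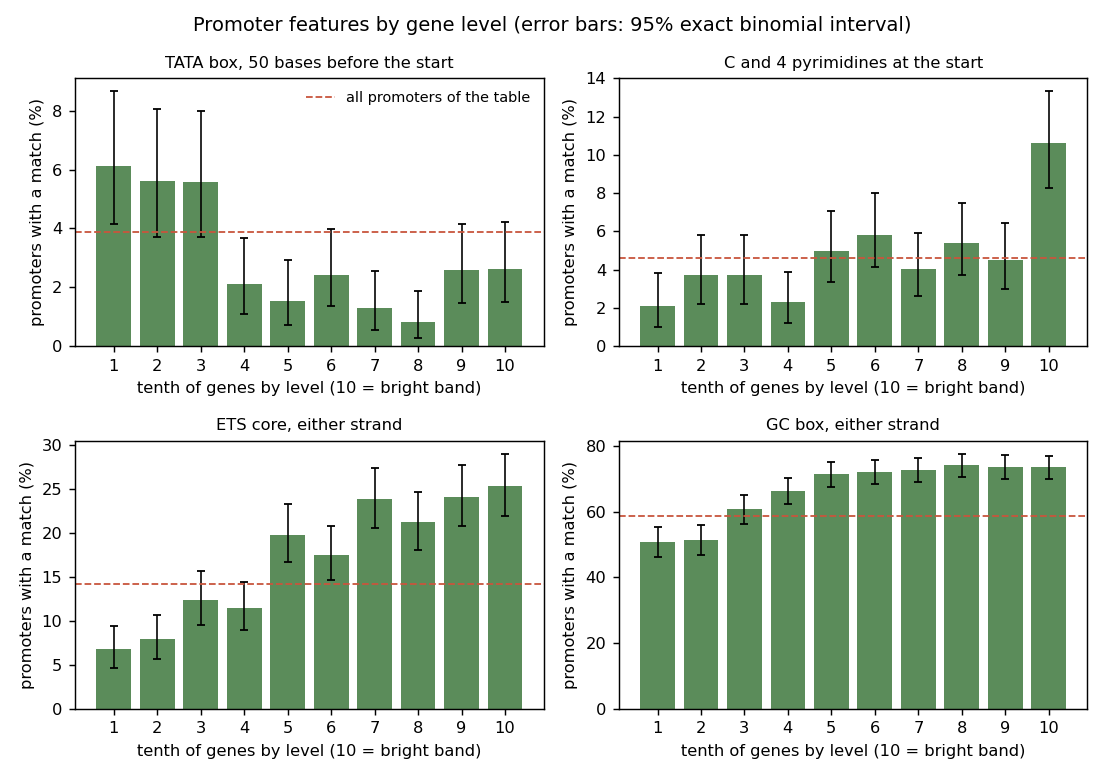
Share of promoters with a match (%, vertical axis) in each of 10 equal groups of genes by level, from the dimmest to the bright band, with 95% exact binomial intervals and the share in all protein-coding promoters as a dashed line. The pyrimidine start is highest in the bright band at 10.6%, the ETS core climbs from 6.75% to 25.3%, and the TATA box is highest in the lowest group at 6.12%.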

How the data were processed

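According to their methods, the authors read the BeadChips in GenomeStudio and dropped every probe that no sample detected. They then took log2 and quantile-normalised in Partek, and deposited these log2 values with 1 column per array. Tool versions are not given in the sources used here. Quantile normalisation brings the distributions of arrays close together, and which arrays it ran over is not given in the sources used here. The 4 siLUC columns were used as deposited. A second table with 24 columns of unnormalised signals and detection p-values was not used, because its column names match no sample label. Probes were named from the platform annotation (9910 with 1 symbol, 4 with several, 6467 with none). Gene IDs of 9904 probes were found in RefSeq, which changed 0 symbols. Each gene took its brightest probe by the mean of 4 arrays, and bands were set at the 90th and 50th percentile of genes. The number of arrays limits the precision. With a single group there was no test, and SDs are over 4 arrays. Values were computed with Python 3.11.15, pandas 2.3.3, numpy 2.4.6 and scipy 1.17.1 and tested on simulated data.

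The gene lists were chosen with earlier results of these data known. Named genes are the markers, the 25 brightest, the brightest 4, the median and the dimmest 2 of each list, all members of lists with up to 35 genes, the widest SDs, the widest probe gaps and genes at band edges. Other members and all families were chosen after their levels were seen. Alternatives were leaving out each array, other rules for probes and bands, the median over arrays and any listed start.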

Additional observations from a re-analysis of the deposited data

Results flagged for a closer look

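The gap of 1 array to the nearest of the others was taken as a share of the whole range. Of 354 genes named above, 19 (5.37%) had a share larger than Dixon's critical value for 4 samples. Of all 7452 genes 401 did (5.38%), so the named genes were flagged about as often as any. Chance flags about 1 in 20 groups. The whole range of such a gene was at most 0.88 on the log2 scale. The gap as a share of the range is given for each gene. Replicate 1 stood apart in FADS2 (high, 0.877) and FGA (low, 0.890). Replicate 2 stood apart in BIRC5 (low, 0.899), CDKN3 (low, 0.881), CFDP1 (high, 0.888), CPA4 (high, 0.832), FAM3C (low, 0.914), HOXB5 (low, 0.839), HOXB7 (low, 0.845), LAD1 (high, 0.858) and PROSER1 (high, 0.889). Replicate 3 stood apart in CTNNA1 (high, 0.910), EPCAM (low, 0.942), FDPS (low, 0.917) and HDAC3 (high, 0.867). Replicate 4 stood apart in ALDOA (low, 0.875), ANXA1 (high, 0.868), GUSB (high, 0.836) and ITGAE (high, 0.847). No cause of these gaps was tested.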

How the results depend on the processing

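No paired analysis was possible because the values come from no test. Leaving out each array in turn moved the lower edge of the bright band between 10.3953 and 10.411 and the median SD of a gene between 0.0769 and 0.0799, from 0.0838 with 4 arrays. With the mean of all probes of a gene the edge was 10.02 and the median SD 0.0771, and with the dimmest probe 9.90 and 0.0859. With the median over arrays the scaled median deviation was 0.0623. The median gap between probes was 0.9542 when only probes with a log2 of at least 7 were kept, and 0.9546 between probes of the same accession, an alternative chosen after seeing the data. The share of bright genes with a pyrimidine start was 13.6% when any listed start counted, also chosen after seeing the data, against 10.6%. Bright markers stayed at 5 of 7 without any 1 array and were 4 of 7 with the mean or the dimmest probe. Of the 745 bright genes, 592 stayed bright with the mean of probes, 537 with the dimmest probe and 738 to 740 without 1 array. Of 29 lists, the number of bright members moved by over 1.5 times in 5 with the mean of probes, 6 with the dimmest probe, 2 with fixed bands, 1 with percentiles among all probes, 8 when only genes with a log2 of at least 7 were ranked (139 bright list members against 190, and 9 against 14 for mitosis) and 0 without any 1 array. The alternative from unnormalised signals was not run. A level in the floor peak sets no upper limit on a transcript, and the number of arrays limits the precision.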
